A study of Homo sapiens with 4 samples.

Results

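Autophagy and lysosome genes were followed through knockdown of MAOA, the monoamine oxidase A gene, in a pair of human prostate cancer lines by RNA sequencing. The 38 genes were chosen by name, with earlier results of these data known. They comprise 21 genes of the autophagy machinery, 15 lysosomal genes and the regulators TFEB and TFE3, out of 25343 genes in each deposited table. All 38 matched a symbol in both tables and all passed the filter of a mean of at least 1 CPM (read counts scaled to library size) over the knockdown and control library of a line. The libraries were C4-2B ENZR with a stably expressed hairpin against the coding region of MAOA, C4-2B ENZR with a non-targeting hairpin, LNCaP with a MAOA hairpin and LNCaP with a non-targeting hairpin, with 1 library in each group. Both C4-2B ENZR libraries came from cells kept in 20 µM enzalutamide, an androgen receptor antagonist to which they are resistant. For LNCaP, the line from which C4-2B was derived, no enzalutamide is recorded. All cells had been infected with lentivirus and antibiotic-selected and were grown with 10% fetal bovine serum. The labels do not say whether the same hairpin was used in both lines.

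Autophagy wraps cytoplasm and organelles in a double membrane, the autophagosome, which then fuses with the lysosome, where hydrolases break the cargo down. The ULK1 kinase complex starts the process, a lipid kinase complex and WIPI proteins mark the growing membrane, and conjugation enzymes attach small ubiquitin-like proteins of the ATG8 family to it. TFEB and TFE3 are transcription factors that mTORC1 keeps in the cytoplasm of fed cells and that switch on lysosomal and autophagy genes when they enter the nucleus.

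Depth, recovered from the steps between CPM values, was 23679869 reads in the knockdown and 23479051 in the control of C4-2B ENZR, and 52012696 in the knockdown and 52550452 in the control of LNCaP, and each of the 38 genes had at least 218 reads in every library. MAOA was at 219 CPM in the C4-2B ENZR knockdown, against 327 CPM in its control, and at 140 CPM in the LNCaP knockdown, against 445 CPM in its control, so the remaining MAOA transcript was 66.8% and 31.3% of control. The 7 prostate luminal markers summed to 2753 to 6890 CPM, with KLK3, which encodes the prostate antigen PSA, low in C4-2B ENZR (6.34 CPM in the knockdown, 3.72 CPM in the control). The haematopoietic markers PTPRC, CD3E and CD14 were below 1 CPM in every library. So were 3 of 4 fibroblast markers, all but COL1A1 at 44.4 to 60.9 CPM, and CDH5 of 3 endothelial markers, which summed to 3.62 to 17.5 CPM. Every ratio was taken within a table as the log2 of (knockdown CPM + 1)/(control CPM + 1). The median ratio of genes with a mean of at least 10 CPM was -0.0072 for C4-2B ENZR and 0.13 for LNCaP, so LNCaP ratios are also given after subtraction of that median. The deposited LNCaP scaling differs from TMM computed anew on the reads (log2 of knockdown over control effective library size -0.216 as deposited and -0.0977 recomputed), and every LNCaP ratio as deposited carries that shift; in C4-2B ENZR both were -0.008.

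Most of the autophagy and lysosome genes differed little between knockdown and control, and 2 of 38 rose over both lines. These were GABARAPL1, an ATG8 family protein, and GAA, the lysosomal acid alpha-glucosidase that degrades glycogen. None of the 38 fell. The test was limma over the 2 within-line ratios with Benjamini-Hochberg adjustment over 13114 genes at 0.05, by which 4.22% of all genes rose and 1.49% fell. The share of the 38 that rose (5.26%) is close to that background. With limma at an unadjusted p under 0.05, 12 of the 38 (31.6%) were higher, where 13.8% of all genes were, and 1, MCOLN1, was lower, where 5.39% were. The 12 were TFEB, ATG14, WIPI1, MAP1LC3B, GABARAPL1, GABARAPL2, CTSD, GAA, HEXA, NPC2, PSAP and LAMP2. After each line was centred on its median ratio, 10 of the 38 were higher at that unadjusted p, where 10.7% of all genes were, and 3 (ATG5, GLA and MCOLN1) were lower, where 10.7% were. The lines serve as the replicates here, with 1 residual and 276 prior degrees of freedom. The p-values thus mostly weigh the average ratio against a spread shared by genes of similar abundance. Nothing in the labels shows separate cultures within a group, and in bulk RNA fewer cells of a type and less RNA per cell cannot be told apart.

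The autophagy genes had a median log2 ratio of 0.04 in C4-2B ENZR and 0.29 in LNCaP, and the lysosome genes 0.02 and 0.21. Over all measured genes the medians were 0.0020 and 0.11. The LNCaP medians were 0.16 for autophagy and 0.08 for lysosome genes after subtraction of the median ratio of that line. In each line 25 of the 38 lay above the median ratio of the line, which is 65.8% of them, against 51.9% of all measured genes in C4-2B ENZR and 46.7% in LNCaP. Subtraction of the line median put the LNCaP ratios of 5 members below 0 that were above it as deposited, ATG2A, ATG3, LAMP1, ATP6V1H and ATP6V0D1. No member differed 1.5-fold in C4-2B ENZR, where 1.59% of 13810 measured genes were higher and 0.963% lower by that margin. In LNCaP 2 members, GABARAPL1 and WIPI1, were at least 1.5-fold higher and none was lower, against 4.98% of 13787 genes higher and 1.57% lower. With 1 library per group these counts describe the libraries and have no replicate check. Exact 95% counting intervals of the ratio, which cover counting error only, lay above equality in both lines for 13 members and below it in both for 2, ATG5 and GLA. The share of all genes with such intervals was not computed. As deposited, 50.4% of all measured genes in C4-2B ENZR and 66.6% in LNCaP had ratios above 0, against 63.2% and 78.95% of the members. The intervals were not centred, so those of LNCaP carry the shift of that line.

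**Figure D1:**
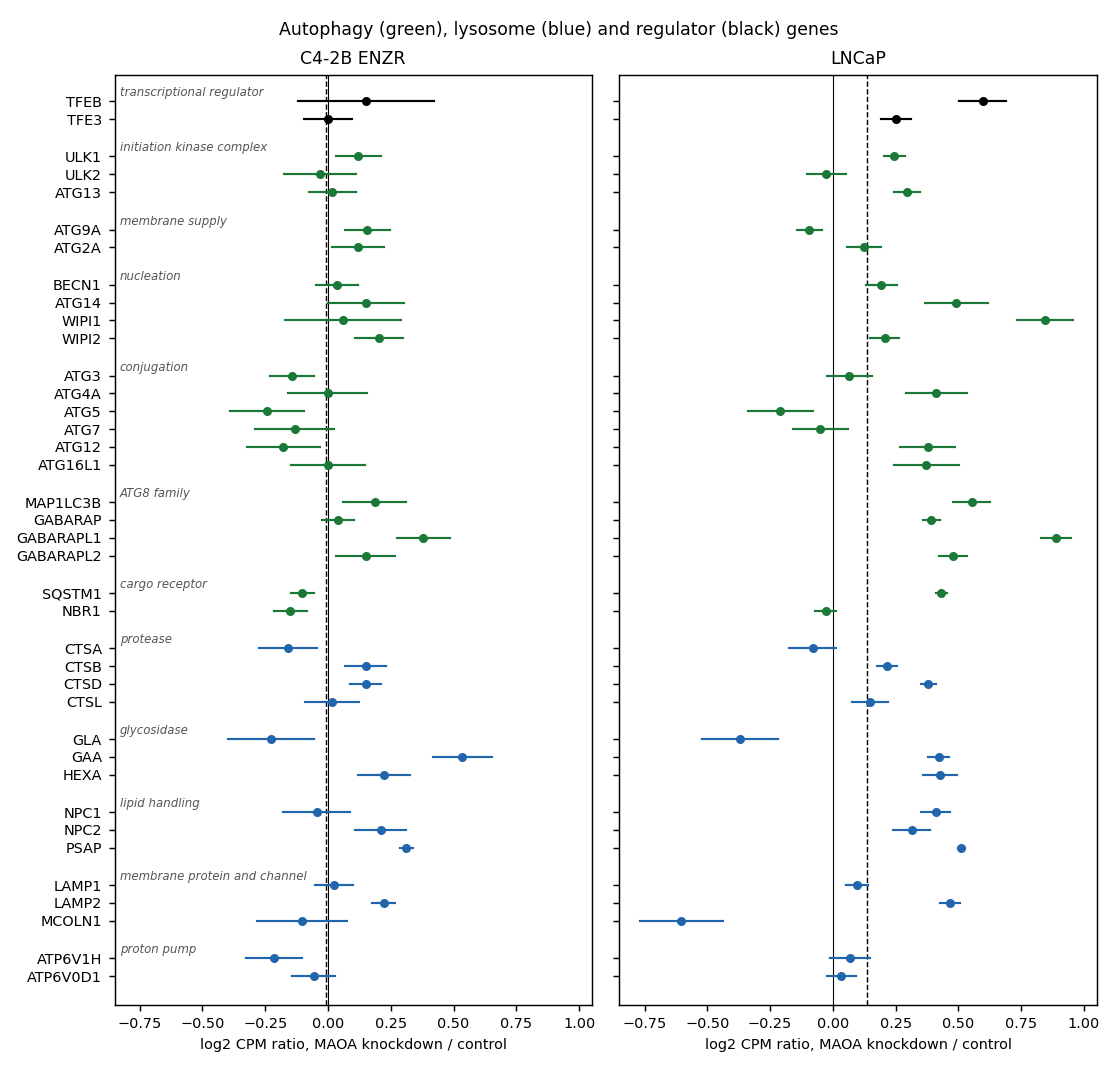
Log2 CPM ratio of MAOA knockdown over control for the 38 genes, grouped by role, in C4-2B ENZR and LNCaP (1 library per group; points are ratios without a pseudocount, bars exact 95% counting intervals, the dashed line the median ratio of the line). GAA, GABARAPL1 and PSAP lie farthest to the right in C4-2B ENZR. The LNCaP points of GABARAPL1 and WIPI1 lie farthest to the right while MCOLN1 lies farthest to the left.

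Of the regulators, TFEB was at 9.80 CPM in the knockdown and 8.82 CPM in the control of C4-2B ENZR, a log2 ratio of 0.14 whose counting interval (-0.12 to 0.42) spans equality. In LNCaP, TFEB was at 44.0 CPM in the knockdown, against 29.1 CPM in the control (0.580), just under the 1.5-fold limit of 0.585 (0.60 without the pseudocount and 0.45 after subtraction of the line median). TFEB was thus higher in both knockdown libraries but did not pass over both lines (limma adjusted p = 0.131). TFE3, its paralog, was at 72.5 CPM in both C4-2B ENZR libraries and at 89.2 CPM in the LNCaP knockdown, against 74.9 CPM in the control (0.25). The mean ratio of TFE3 did not pass either (limma adjusted p = 0.648).

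Initiation and membrane supply genes had small ratios. ULK1, the kinase that starts autophagosome formation, was at 86.1 CPM in the knockdown and 79.2 CPM in the control of C4-2B ENZR, and at 193 CPM in the knockdown and 163 CPM in the control of LNCaP. Its paralog ULK2 was at 31.5 and 32.2 CPM in the C4-2B ENZR knockdown and control and at 51.0 and 51.9 CPM in those of LNCaP. ATG13, which binds ULK1 in the initiation complex, had ratios of 0.02 and 0.29. Of these 3, ULK1 was higher beyond counting error in both knockdown libraries and ULK2 in neither. ATG2A, which transfers lipid to the growing membrane, had nearly the same ratio in both lines (0.12 and 0.12). ATG9A, a lipid scramblase whose vesicles seed that membrane, was at 87.1 CPM in the C4-2B ENZR knockdown, against 78.2 CPM in its control, but at 126 CPM in the LNCaP knockdown, against 134 CPM in its control. Of the 50-mers of ATG9A transcripts, 36.8% also occur in another annotated gene, so its value is uncertain. None of these 5 genes passed in limma (adjusted p of 0.454 to 0.942).

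Among the genes that mark the nucleating membrane, WIPI1, a phosphoinositide-binding protein, had the largest LNCaP ratio. It was at 34.8 CPM in the LNCaP knockdown and 19.4 CPM in the control, a ratio of 0.81 (counting interval 0.73 to 0.96, and 0.68 with the line median subtracted). In C4-2B ENZR it was at 13.0 CPM in the knockdown and 12.5 CPM in the control (0.05, interval -0.17 to 0.29). The libraries thus differed beyond counting error in LNCaP and not in C4-2B ENZR, and the difference between the lines was not tested. Over both lines WIPI1 missed the threshold (limma mean log2 0.43, SE 0.15, adjusted p = 0.0551). ARSG, on the opposite strand, shares 23.5% of WIPI1 50-mers, and the sources used here do not say whether reads were counted by strand. WIPI2, which recruits the conjugation machinery, was at 76.5 CPM in the knockdown and 66.4 CPM in the control of C4-2B ENZR and at 99.0 CPM in the knockdown and 85.8 CPM in the control of LNCaP, a ratio of 0.20 in each line. ATG14, the subunit that directs the lipid kinase to autophagy, was at 30.1 CPM in the knockdown and 27.1 CPM in the control of C4-2B ENZR and at 23.7 CPM in the knockdown and 16.8 CPM in the control of LNCaP (0.15 and 0.47). BECN1, the scaffold of the same kinase complex, had ratios of 0.04 and 0.19. All 4 genes of this group had ratios above 0 in both lines as deposited, and none of them passed. BECN1 was just below its control in LNCaP when columns were rescaled to the same sum. In C4-2B ENZR the counting intervals of WIPI1, BECN1 (-0.05 to 0.12) and ATG14 (-0.0014 to 0.30) spanned equality. That of WIPI2 did not (0.11 to 0.30). As deposited, 50.4% of all measured genes in C4-2B ENZR and 66.6% in LNCaP had ratios above 0. The share above 0 in both lines was not computed.

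The conjugation enzymes did not share a direction. ATG5, which joins ATG12 and ATG16L1 in the complex that places ATG8 proteins on the membrane, was at 28.5 CPM in the knockdown and 33.6 CPM in the control of C4-2B ENZR and at 17.7 CPM in the knockdown and 20.5 CPM in the control of LNCaP (-0.23 and -0.20). Its counting intervals lay below equality in both lines, without passing over both (limma adjusted p = 0.415). ATG12, the partner that is covalently joined to ATG5, was at 30.0 CPM in the C4-2B ENZR knockdown, against 33.9 CPM in its control, and at 29.1 CPM in the LNCaP knockdown, against 22.4 CPM in its control (-0.17 and 0.36). The lines thus differed in sign for ATG12, beyond counting error in each. ATG16L1 and the protease ATG4A, which trims ATG8 proteins, were level in C4-2B ENZR (0.00033 and -0.00061) and higher in the LNCaP knockdown (0.35 and 0.39). The activating enzyme ATG7 had ratios of -0.13 and -0.05, and ATG3, which hands ATG8 proteins to the lipid, -0.14 and 0.06. None of the 6 passed in limma.

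All 4 ATG8 family members listed had ratios above 0 in both lines, also after centring, and 1 of the 4 passed. In C4-2B ENZR the counting interval of GABARAP spanned equality (-0.02 to 0.10). As deposited, 50.4% of all measured genes in C4-2B ENZR and 66.6% in LNCaP had ratios above 0. The share of all genes above 0 in both lines was not computed, as deposited or centred. GABARAPL1 was at 68.2 CPM in the C4-2B ENZR knockdown, against 52.4 CPM in its control, and at 115 CPM in the LNCaP knockdown, against 62.4 CPM in its control. These are 130% and 185% of control, with log2 ratios of 0.37 (counting interval 0.27 to 0.48) and 0.88 (0.83 to 0.95). GABARAPL1 rose over both lines (mean log2 0.63, SE 0.12, limma adjusted p = 0.000102) and also when edgeR was run on the recovered reads with TMM factors computed anew (adjusted p = 0.0219), by which 1.33% of all genes rose and 0.976% fell, and in DESeq2 (adjusted p = 0.0105). It was the 1 member that rose in that edgeR fit, where none fell. With every gene of at least 1 read tested, limma called neither GABARAPL1 (adjusted p = 0.155) nor GAA (0.156). Other annotated genes share 2.46% of the 50-mers of GABARAPL1.

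The paralogs of GABARAPL1 had smaller ratios in both lines. GABARAPL2 was at 50.9 CPM in the knockdown and 45.8 CPM in the control of C4-2B ENZR and at 117 CPM in the knockdown and 84.2 CPM in the control of LNCaP (0.15 and 0.47). MAP1LC3B, which encodes the autophagosome marker LC3B, was at 46.0 CPM in the knockdown and 40.4 CPM in the control of C4-2B ENZR and at 72.2 CPM in the knockdown and 49.2 CPM in the control of LNCaP (0.18 and 0.54). GABARAP was at 165 CPM in the knockdown and 161 CPM in the control of C4-2B ENZR and at 307 CPM in the knockdown and 234 CPM in the control of LNCaP (0.04 and 0.39). None of these 3 passed, with limma adjusted p of 0.126 for GABARAPL2, 0.0665 for MAP1LC3B and 0.375 for GABARAP. MAP1LC3B shares 8.93% of its 50-mers with MAP1LC3B2, and GABARAP shares 49.9% with transcripts of other annotated genes.

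Cargo receptors bind ubiquitinated cargo and ATG8 proteins at the same time, and neither of those listed passed. SQSTM1, which encodes p62, was at 306 CPM in the C4-2B ENZR knockdown, against 329 CPM in its control, and at 694 CPM in the LNCaP knockdown, against 514 CPM in its control (-0.10 and 0.43). It was lower in the knockdown of one line and higher in that of the other, beyond counting error in each (limma adjusted p over both lines 0.594). Transcripts on the opposite strand, mainly of MRNIP, share 38.9% of its 50-mers. NBR1 was at 143 CPM in the knockdown and 159 CPM in the control of C4-2B ENZR (-0.15), and at 171 CPM in the knockdown and 175 CPM in the control of LNCaP (-0.03).

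**Figure D2:**
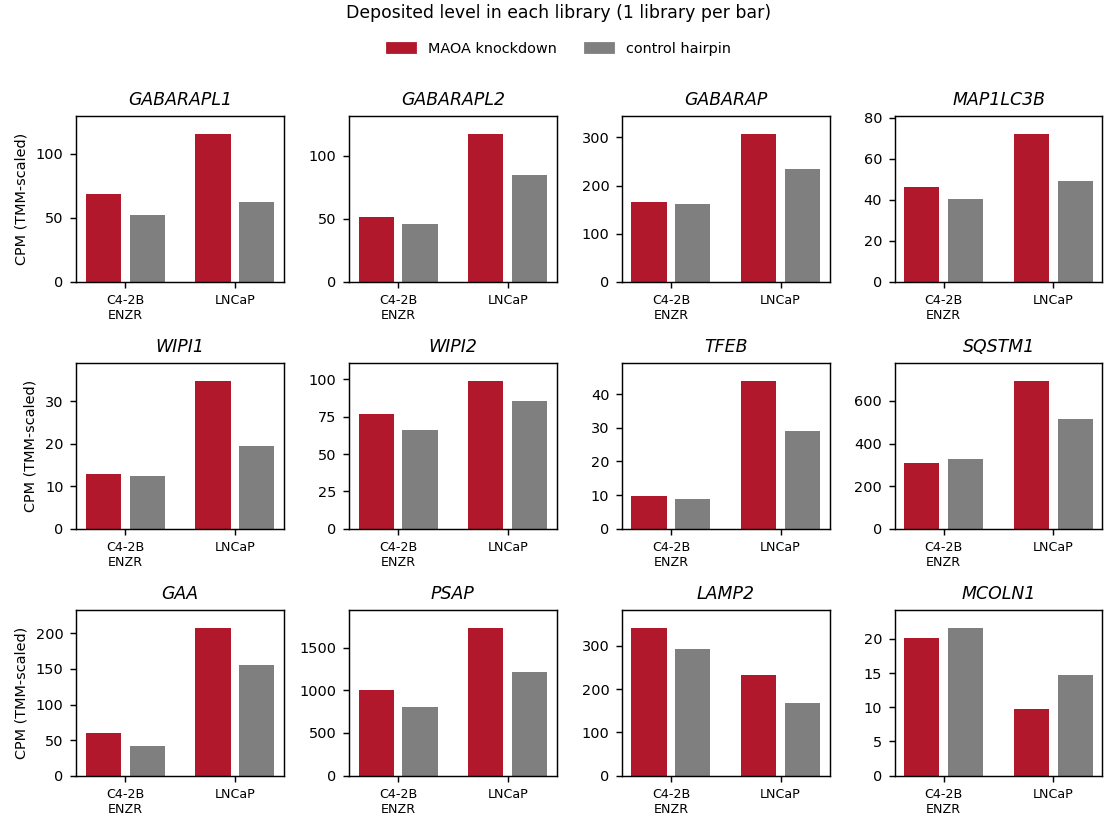
Deposited CPM of 12 members in each of the 4 libraries (bars from 0, 1 library per bar, so no error bar; axes differ between genes). GABARAPL1 and GAA are higher in the knockdown library of both lines, WIPI1 differs in LNCaP (34.8 against 19.4 CPM), SQSTM1 differs in sign between the lines, and MCOLN1 is lower in both knockdown libraries.

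Of the 15 lysosome genes, 9 in C4-2B ENZR (60%) and 12 in LNCaP (80%) had ratios above 0, and GAA rose. Among all measured genes 50.4% and 66.6% had ratios above 0. In each line 9 of the 15 lay above the median ratio of the line, against 51.9% and 46.7% of all measured genes. GAA was at 59.8 CPM in the C4-2B ENZR knockdown, against 41.2 CPM in its control, and at 208 CPM in the LNCaP knockdown, against 155 CPM in its control. The log2 ratios were 0.52 (counting interval 0.42 to 0.65) and 0.42 (0.38 to 0.46), and 0.29 in LNCaP after subtraction of the line median. GAA had the largest C4-2B ENZR ratio of the 38 genes and rose over both lines (mean log2 0.47, SE 0.12, limma adjusted p = 0.0064). GAA missed the threshold in that edgeR fit (adjusted p = 0.0585), in DESeq2 (0.0726) and in limma with a prior without trend (0.0534). HEXA, the alpha subunit of beta-hexosaminidase, was at 65.3 CPM in the knockdown and 55.9 CPM in the control of C4-2B ENZR and at 79.7 CPM in the knockdown and 59.3 CPM in the control of LNCaP (0.22 and 0.42, limma adjusted p = 0.112). The third glycosidase listed, GLA, which removes galactose from glycolipids, was lower in both knockdown libraries. It was at 20.9 CPM in the knockdown and 24.4 CPM in the control of C4-2B ENZR and at 11.97 CPM in the knockdown and 15.5 CPM in the control of LNCaP (-0.22 and -0.34, limma adjusted p = 0.273).

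Of the genes for lipid handling, PSAP, the precursor of the saposins that activate sphingolipid breakdown, was at 1006 CPM in the C4-2B ENZR knockdown, against 810 CPM in its control, and at 1731 CPM in the LNCaP knockdown, against 1214 CPM in its control. Its ratios of 0.31 and 0.51 had narrow counting intervals (0.29 to 0.34 and 0.50 to 0.53). PSAP did not pass as deposited (mean log2 0.41, SE 0.18, limma adjusted p = 0.171), and it passed after each line was centred on its median ratio (adjusted p = 0.0209), a scaling by which 4.41% of all genes rose and 4.14% fell. NPC2, which carries cholesterol in the lysosome lumen, had ratios of 0.21 and 0.31. The membrane protein NPC1, to which NPC2 passes that cholesterol, was at 37.6 CPM in the knockdown and 38.8 CPM in the control of C4-2B ENZR and at 100.7 CPM in the knockdown and 75.9 CPM in the control of LNCaP (-0.04 and 0.40). After centring, 3 of the 38 rose (GABARAPL1, GAA and PSAP) and none fell.

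Among the proteases, CTSD, an aspartic protease, was at 177 CPM in the knockdown and 159 CPM in the control of C4-2B ENZR and at 427 CPM in the knockdown and 328 CPM in the control of LNCaP (0.15 and 0.38). A same-strand annotated transcript shares 44.0% of the 50-mers of CTSD. The cysteine protease CTSB had ratios of 0.15 and 0.21, and CTSL, another cysteine protease, 0.02 and 0.15. CTSA, a carboxypeptidase that also stabilises other hydrolases, was at 47.8 CPM in the knockdown and 53.4 CPM in the control of C4-2B ENZR and at 33.9 CPM in the knockdown and 35.8 CPM in the control of LNCaP (-0.16 and -0.08). CTSA was the protease gene that was lower in both knockdown libraries, and none of the 4 passed.

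The membrane genes went different ways. LAMP2, a major glycoprotein of the lysosomal membrane, was at 341 CPM in the knockdown and 293 CPM in the control of C4-2B ENZR and at 233 CPM in the knockdown and 169 CPM in the control of LNCaP (0.22 and 0.46, limma adjusted p = 0.107). LAMP1, its paralog, was at 117 and 115 CPM in the C4-2B ENZR knockdown and control and 162 and 152 CPM in those of LNCaP (0.02 and 0.09). MCOLN1, the calcium channel whose opening leads to TFEB activation, was at 20.1 CPM in the C4-2B ENZR knockdown, against 21.6 CPM in its control, and at 9.68 CPM in the LNCaP knockdown, against 14.7 CPM in its control. The ratios of MCOLN1 were -0.10 (interval -0.28 to 0.07) and -0.56 (-0.77 to -0.44), its mean of -0.33 did not pass (SE 0.15, limma adjusted p = 0.190), and it had the lowest LNCaP ratio of the 38 (-0.60 without the pseudocount). The proton pump subunits, which acidify the lumen, were ATP6V1H with ratios of -0.21 and 0.07 and ATP6V0D1 with -0.06 and 0.03 (-0.07 and -0.10 in LNCaP after centring). Neither pump subunit passed.

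Promoter sequence is shown for GAA, the lysosome gene that rose, for 4 lysosome genes with the same letters that did not pass, and for GABARAPL1, which rose without them, because TFEB and TFE3 are known to bind a CACGTG core, the E-box, that is frequent before lysosomal genes. RefSeq promoters (GRCh38.p14, 250 bases before to 50 after the start, which is not the hg19 build of the deposited data) were found for 33 of the 38 genes, all but CTSB, HEXA, PSAP, LAMP2 and ATP6V1H. The letters CACGTG, which read the same on both strands, occurred in 8 of the 33 (ATG3, ATG14, ATP6V0D1, CTSA, CTSD, GAA, LAMP1 and MCOLN1), against 8.78% of 27305 genes with a promoter. Apart, these were 2 of 21 autophagy genes (9.52%, near that background), neither of the regulators, and 6 of the 10 lysosome genes matched out of 15. The longer TCACGTGA, which contains CACGTG, occurred in 6 of them (ATG3, ATP6V0D1, CTSA, GAA, LAMP1 and MCOLN1), against 1.18%. With a G before and a C after it, it occurred in GAA and MCOLN1, against 0.421% of all. The lines give 5′ to 3′ the 100 bases just before the start of GAA (chr17:80101481-80101580, plus strand), MCOLN1 (chr19:7522524-7522623, plus strand), CTSA (chr20:45891235-45891334, plus strand), ATP6V0D1 (chr16:67481158-67481257, minus strand) and GABARAPL1 (chr12:10212777-10212876, plus strand) and the 200 bases before that of LAMP1 (chr13:113297039-113297238, plus strand), with CACGTG in capitals:
GAA: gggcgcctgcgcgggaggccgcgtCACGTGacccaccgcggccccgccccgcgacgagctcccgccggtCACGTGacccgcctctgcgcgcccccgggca
MCOLN1: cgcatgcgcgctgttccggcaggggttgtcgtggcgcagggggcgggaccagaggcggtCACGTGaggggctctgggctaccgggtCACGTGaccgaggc
CTSA: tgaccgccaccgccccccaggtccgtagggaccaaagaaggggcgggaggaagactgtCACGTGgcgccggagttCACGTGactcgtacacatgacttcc
ATP6V0D1: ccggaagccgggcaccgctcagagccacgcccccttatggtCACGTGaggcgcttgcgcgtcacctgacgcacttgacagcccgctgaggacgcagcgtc
LAMP1: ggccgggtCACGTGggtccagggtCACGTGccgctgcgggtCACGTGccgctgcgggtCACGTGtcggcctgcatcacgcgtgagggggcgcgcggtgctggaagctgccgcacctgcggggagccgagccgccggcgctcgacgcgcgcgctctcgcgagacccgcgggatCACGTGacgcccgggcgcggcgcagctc
GABARAPL1: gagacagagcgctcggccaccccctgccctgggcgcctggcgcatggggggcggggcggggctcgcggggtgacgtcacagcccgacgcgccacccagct

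GAA and MCOLN1 both hold the longest of these elements close to the start, and their ratios had opposite signs in both lines, that of MCOLN1 within counting error in C4-2B ENZR. CACGTG begins at -76 and -31 from the start in GAA and at -41 and -14 in MCOLN1. LAMP1, with 5 copies in the bases shown and a further CACGTG that begins at -1 and runs past the start, had ratios of 0.02 and 0.09. In CTSA, where it begins at -42 and -25, and in ATP6V0D1, where it begins at -59, the mean ratio over both lines was below 0 (-0.12 and -0.01). CTSD, where it begins at -47, and ATG14, where it begins at -21, were higher in both knockdown libraries, with ratios of 0.15 and 0.38 for CTSD and 0.15 (within counting error) and 0.47 for ATG14. ATG3, where it begins at -18 and at 5, had ratios of -0.14 and 0.06. GABARAPL1, the member with the smallest p, has no CACGTG in its promoter window. No promoter was found for 5 lysosome genes, so they could not be placed in this comparison. Their mean log2 ratios over both lines were 0.41 for PSAP, 0.34 for LAMP2, 0.32 for HEXA, 0.18 for CTSB and -0.07 for ATP6V1H. A match to these letters is a property of the sequence and not a measured binding site, and no match says only that the letters are not in this window.

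**Figure D3:**
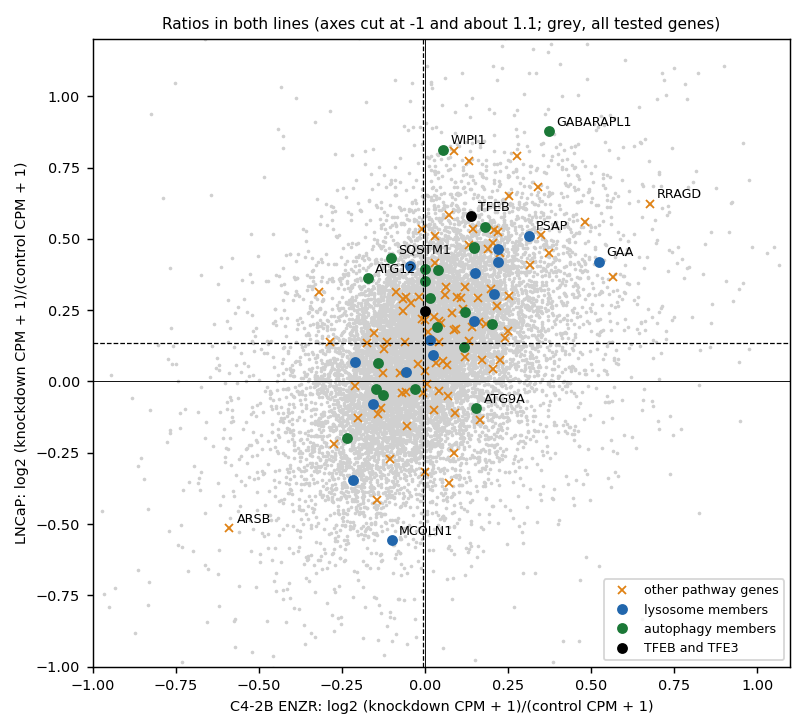
Log2 (knockdown CPM + 1)/(control CPM + 1) of each gene in C4-2B ENZR (x) and in LNCaP (y), with all 13114 tested genes in grey, members as filled points and other pathway genes as crosses (1 library per group; dashed lines are the median ratios of the lines). Members lie within the grey cloud, with GABARAPL1 and GAA at its upper right, MCOLN1 low, and SQSTM1 and ATG12 below 0 in C4-2B ENZR but above 0 in LNCaP. Both axes are cut near -1 and 1.1.

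Other genes of the same pathways gave the setting for these results. Of 95 further genes, all matched in the tables (1 through an older symbol), 93 were tested, 9 rose and 1 fell, which is 9.68% rising beside the background of 4.22%. By list, 3 of 31 autophagy genes, 5 of 41 lysosome genes, none of 14 proton pump genes and 1 of 7 genes that control TFEB rose, and 1 lysosome gene fell. These lists were chosen with earlier results of these data known, so the excess over the background is not independent of the data. In the edgeR fit with new TMM factors 2 of the 93 rose, where 1.33% of all genes did, and in DESeq2 0 rose. MAOA, the gene knocked down, fell in limma (adjusted p = 4.44e-12) and in that edgeR fit (adjusted p = 0.0139). It missed the threshold in DESeq2 (mean log2 -1.19, SE 0.57, adjusted p = 0.315), so a miss in DESeq2 does not show that a gene was unchanged. RRAGD, a Rag GTPase that brings mTORC1 to the lysosome and is a known target of TFEB, was at 21.7 CPM in the knockdown and 13.2 CPM in the control of C4-2B ENZR and at 28.0 CPM in the knockdown and 17.8 CPM in the control of LNCaP (mean log2 0.65, SE 0.14, limma adjusted p = 0.000657). CTSF, a lysosomal cysteine protease, rose by 0.51 (adjusted p = 0.00326 in limma), at 132 CPM in the LNCaP knockdown and 82.2 CPM in its control. ARSB, which removes sulfate from dermatan sulfate, fell in limma (mean log2 -0.55, adjusted p = 0.00652), at 17.6 CPM in the knockdown and 27.1 CPM in the control of C4-2B ENZR and at 13.1 CPM in the knockdown and 19.2 CPM in the control of LNCaP. These 3 also passed in the edgeR fit with new TMM factors, where RRAGD and CTSF were the 2 of the 93 that rose, and in DESeq2 ARSB alone of the 3 did (adjusted p = 0.0431).

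The other genes that rose in limma missed the threshold in that edgeR fit. They were the mitophagy receptors BNIP3 (mean log2 0.43) and BNIP3L (0.45), the ATG16L1 paralog ATG16L2 (0.52), and the lysosomal enzymes IDUA (0.53), MANBA (0.45), NEU1 (0.45) and ARSA (0.41). NEU1, a sialidase, was at 63.1 CPM in the LNCaP knockdown, against 35.6 CPM in its control, with a C4-2B ENZR ratio of 0.09. MANBA, a mannosidase, likewise had a ratio of 0.77 in LNCaP and 0.13 in C4-2B ENZR, so both calls rest mainly on LNCaP. Other annotated genes, mainly LRRC37A15P, share 18.8% of the 50-mers of MANBA.

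**Figure D4:**
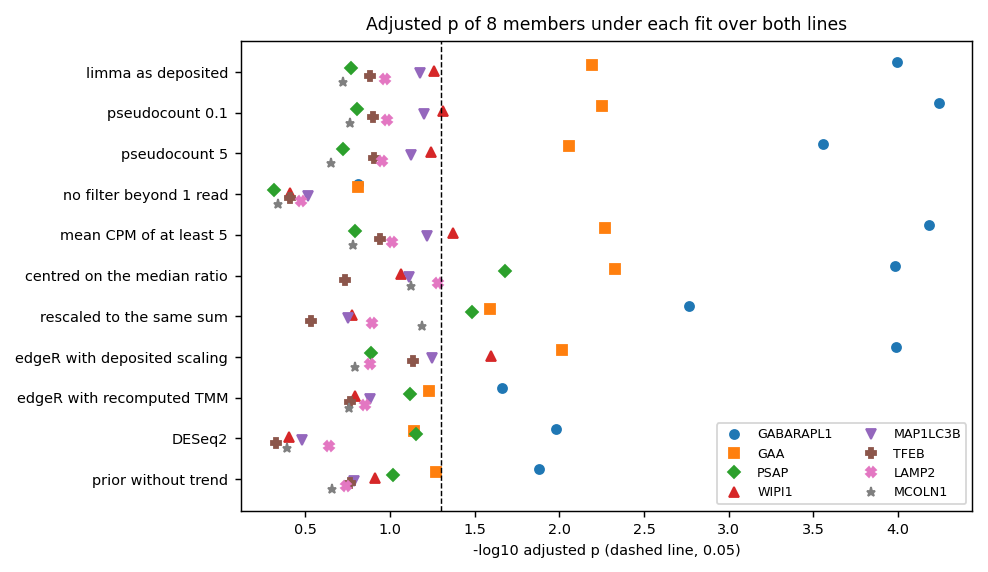
Adjusted p, as -log10, of 8 members under limma as deposited and 10 other fits over both lines (points right of the dashed line pass 0.05). GABARAPL1 passes in all but the fit with no filter on low values, GAA passes in 6 of the 10 other fits, PSAP in 2 and WIPI1 in 3.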

How the data were processed

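Per the submitters' processing notes, Bowtie2 2.1.0, RSEM 1.2.15 and edgeR were used with build hg19; no source used here names the annotation, filters or strand setting. Deposited by the authors was 1 table per line of CPM named as scaled by TMM; recomputed TMM matched the C4-2B ENZR scaling but not that of LNCaP, whose factor is not known here. The LNCaP columns were handled as a deposited signal on that scale, because its knockdown column sums to 1064501. All values (100%) were whole multiples of 1 read within 0.01 read, and 3 reads were worth 0.0529 to 0.122 CPM.

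Genes with a mean of at least 1 CPM in both tables were fitted with limma 3.58.1 (R 4.3.3) on log2(CPM + 1), with line and knockdown terms, a trended prior and Benjamini-Hochberg adjustment; folds are on that scale. edgeR 4.0.16 and DESeq2 1.42.0 on the recovered reads were alternatives, with other pseudocounts, filters and scalings. Counting intervals are exact (Clopper-Pearson). The limma step was tested on simulated counts with the same change in both lines and a fixed spread. That simulation does not cover lines that respond differently. Shared 50-mers were counted in GENCODE v29 transcripts. Members without a remark on this above also share 50-mers on either strand, such as BECN1 (28.55%), ATG7 (22.5%), HEXA (21.1%), CTSA (20.0%) and ATG12 (10.9%). So do ATG16L2 (11.3%) and BNIP3 (10.8%) of the other pathway genes. Members passing the test or 1.5-fold in a line, and their families, were given in full. The members and lists were chosen with earlier results of these data known. With 1 library per group, differences within a line were not tested.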

Additional observations from a re-analysis of the deposited data

Results flagged for a closer look

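For 3 of the 38 genes the knockdown and control libraries differed in opposite directions in the 2 lines, with both exact 95% counting intervals away from equality. The share of all genes that meet this rule was not computed, so whether 3 of 38 is unusual cannot be said. ATG9A had a log2 ratio of 0.15 in C4-2B ENZR and -0.0928 in LNCaP. ATG12 had -0.17 in C4-2B ENZR and 0.36 in LNCaP. SQSTM1 had -0.10 in C4-2B ENZR and 0.43 in LNCaP. After subtraction of the median ratio of the line the LNCaP values were -0.23 for ATG9A, 0.23 for ATG12 and 0.30 for SQSTM1. The difference between the lines was not tested, since no spread among samples remains to test it with 4 libraries. The lines also differ in depth, in the enzalutamide recorded and in the remaining MAOA (66.8% and 31.3% of control), and the part of each in these differences was not tested.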

How the results depend on the processing

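Of 21 autophagy members 1 rose as reported, 2 rose with a pseudocount of 0.1, with a mean of at least 5 CPM and in edgeR with the deposited scaling (WIPI1 being added), and 0 with no filter beyond 1 read. Of 15 lysosome members 1 rose as reported, 2 after centring or rescaling to the same sum (PSAP being added), and 0 with no filter, in edgeR with recomputed TMM, in DESeq2 and with a prior without trend. No member fell in any of the 11 fits. Of the 93 other pathway genes 9 rose and 1 fell as reported. After rescaling to the same sum 4 rose and 3 fell, where 351 and 653 of all 13114 genes did. After centring 11 rose and 2 fell, where 578 and 543 did. In edgeR with recomputed TMM 2 rose and 1 fell, where 175 and 128 did. In DESeq2 0 rose and 1 fell, where 131 and 90 did, and MAOA itself missed the threshold (adjusted p = 0.315). That fit gave no adjusted p for 6 of the 93 and for 3560 of all genes. With a prior without trend 4 rose, and with no filter 0 rose and 0 fell. Counts over all genes are not given here for those 2 fits. In LNCaP the autophagy median of 0.29 was 0.16 centred and 0.0929 rescaled, the lysosome median of 0.21 was 0.0792 and 0.0135, and 1 lysosome gene (MCOLN1) was 1.5-fold lower with a pseudocount of 0.1, after centring and after rescaling. Mean ratios changed sign for 4 genes, none past the threshold: ATG9A to -0.0325 centred, -0.0787 rescaled, -0.0362 in edgeR with recomputed TMM and -0.0305 in DESeq2, ATG12 to -0.0112 rescaled, CTSL to -0.0280 rescaled, and LAMP1 to -0.0048 centred, -0.0512 rescaled, -0.0038 in that edgeR fit and -6.7e-05 in DESeq2. The causes were not tested. The adjusted p of GABARAPL1 ranged from 5.72e-05 to 0.155 over the 10 alternatives and that of GAA from 0.00467 to 0.156. Every fit has line as a term and so pairs knockdown with control within a line; the labels number no replicates for a further block.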
